A study of Homo sapiens with 40 samples.

Results

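The DNA glycosylase genes of human cells were followed here in RNA sequencing libraries of HEK293A cells with and without PARP1. The 10 genes NEIL1, NEIL2, NEIL3, OGG1, MUTYH, UNG, SMUG1, TDG, MBD4 and MPG were taken by name from the 58395 genes of the count table. Each DNA glycosylase recognises 1 class of damaged or mispaired base, flips it out of the helix and cuts its bond to the sugar, which opens base excision repair. The abasic site that remains is incised, filled by a DNA polymerase and ligated, and PARP1 binds the strand break on the way. NEIL1, NEIL2 and NEIL3 act on oxidised bases, OGG1 on oxidised guanine, MUTYH on adenine placed opposite oxidised guanine, UNG and SMUG1 on uracil, TDG and MBD4 on thymine or uracil mispaired with guanine, and MPG on alkylated bases.

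HEK293A is an established human embryonic kidney line. Wild-type (WT) cells were compared with PARP1-knockout (PARP1-KO) cells, which are 1 clone that carries a homozygous CRISPR/Cas9 deletion within PARP1, so that clone and genotype cannot be told apart. The labels call this genotype a knockdown in one field and a knockout in the titles. Each genotype received 5 treatments for 5 to 5.5 h, namely no treatment, 0.1% DMSO, topotecan (Tpc, a topoisomerase 1 poison) with 0.1% DMSO, 5 μM OL9-119 (an inhibitor of tyrosyl-DNA phosphodiesterase 1) in 0.1% DMSO, and Tpc + OL9-119. Tpc was given at 100 nM to WT cells and at 50 nM to PARP1-KO cells, so its responses in the genotypes also differ in dose. There were 4 libraries for each of the 10 conditions and 40 in all. The labels call these replicates biological and the methods call them technical, so that a p-value measures the spread between these libraries, which may be technical. 

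The libraries held 3455043 to 20379777 counts on genes, with a median of 10656829. PARP1 itself lay at 737 to 887 CPM (counts scaled to the library total, with TMM factors) in WT and at 30.4 to 46.6 CPM in PARP1-KO libraries, without overlap, and the counts left in the knockout can come from exons outside the deletion. Of the markers of the kidney line, VIM, KRT8, KRT18, CDH2 and NEFL were present in every library, PAX2 was as low as 0.0979 CPM, and the blood and liver genes PTPRC, CD3E and ALB were at or near 0. Of the other markers of foreign cell types, the fibroblast gene COL1A1 was at 14.7 to 43.0 CPM in WT and 9.10 to 17.7 CPM in PARP1-KO libraries, the monocyte gene CD14 at 0 to 1.84 and 1.41 to 4.73 CPM, PECAM1 and ACTA1 reached 2.74 and 7.67 CPM, and HBB did not pass the filter. Their part in the results was not tested. Fewer than 20000 genes were detected in 12 libraries, 10 of them WT and 2 PARP1-KO, although their totals reached 14398670 counts. Their mean correlation with the other libraries of their condition ran from 0.901 to 0.964, against 0.942 to 0.986 in the other 28 libraries. This left 2, 1, 3, 3 and 1 WT libraries with 20000 or more genes in the order of treatments given above, and the main results are therefore given with all libraries and with these 28.

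All 10 genes passed the filter (a sum of 10 or more counts) and were tested among 28922 genes with the quasi-likelihood test of edgeR. A gene was called at an adjusted p-value below 0.01. The counts behind a single value ran from 10 in the weakest library for NEIL2 to 2319 in the strongest for TDG, so counting error bears mainly on NEIL2. CPM was also divided by gene length, which was the union of the annotated exons of a gene and not the length of an expressed transcript. Per kilobase of this length, the WT means over 20 libraries were 22.1 ± 6.31 CPM per kb for MPG and 20.1 ± 3.29 for TDG. UNG was at 19.8 ± 2.63 and MBD4 at 16.8 ± 3.86 (SD, n = 20). These neighbours in the order differed by less than their spread. NEIL3 followed at 12.9 ± 2.83 CPM per kb, then SMUG1 at 5.87 ± 0.941, NEIL1 at 3.92 ± 1.26, MUTYH at 2.80 ± 1.05, NEIL2 at 2.22 ± 1.18 and OGG1 at 1.66 ± 0.379 (SD, n = 20). The step from NEIL3 to SMUG1 exceeded the spread of both, and the last 4 genes overlapped their neighbours. In PARP1-KO cells, TDG came first at 23.7 ± 2.47 CPM per kb, MPG had rank 4 at 14.3 ± 3.15, and NEIL1 came last at 1.31 ± 0.229 (SD, n = 20).

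The first question was which glycosylase transcripts differed between the genotypes. Averaged over the 5 treatments, NEIL1, SMUG1, MPG and NEIL3 were lower and TDG was higher in PARP1-KO cells, while NEIL2, OGG1, MUTYH, UNG and MBD4 did not pass the threshold. The 5 genes called of 10 compare with 35.2% of all tested genes called in this comparison, 14.3% lower and 20.9% higher. Among the 15347 genes with a mean of at least 1 CPM, to which all 10 belong, 52.3% were called, with 25.3% of these 15347 genes lower and 27.0% higher, so that the share of glycosylase genes called was near the background. The median log2 fold change was −0.34 over the 10 genes, 0.22 over all tested genes and 0.02 over the genes with at least 1 CPM. In extracted RNA, a lower level per cell and fewer cells with the transcript cannot be told apart.

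**Figure D1:**
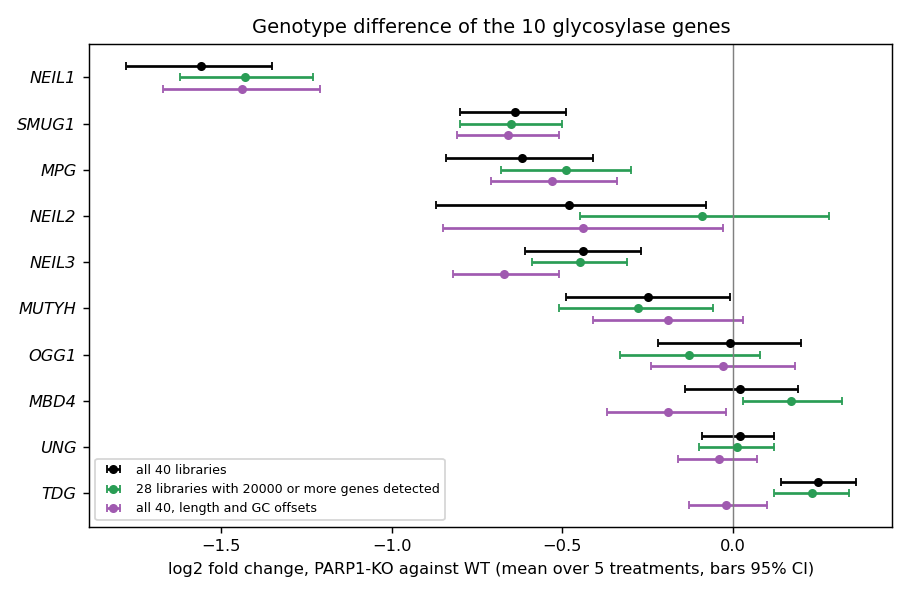
Log2 fold change of each gene, PARP1-KO against WT, averaged over the 5 treatments (x axis, bars are 95% confidence intervals), from all 40 libraries, from the 28 libraries with 20000 or more genes detected, and with length and GC offsets. NEIL1 lies at −1.43 or below in each fit, and the point of TDG moves from 0.25 to −0.02 with the offsets.

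NEIL1 (ENSG00000140398, chromosome 15, 75346955 to 75357115 on the plus strand of hg38 by GENCODE 44) showed the largest difference among the glycosylases. Its level without treatment was 30.6, 27.3, 25.6 and 22.6 CPM in the 4 WT libraries and 7.84, 9.39, 9.44 and 8.80 CPM in the 4 PARP1-KO libraries. With DMSO it was 34.5, 18.6, 57.5 and 22.4 CPM in WT and 8.41, 8.77, 6.75 and 8.87 CPM in PARP1-KO cells. The WT values with DMSO were the most scattered of any condition, and still all of them stood above every PARP1-KO value.

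With Tpc, NEIL1 was at 23.3, 33.9, 22.6 and 26.4 CPM in WT and at 10.6, 9.72, 9.86 and 7.98 CPM in PARP1-KO cells. With OL9-119 it was at 27.7, 35.7, 27.0 and 26.4 CPM against 5.84, 9.89, 9.99 and 12.3 CPM. With Tpc + OL9-119 it was at 20.3, 19.97, 22.9 and 18.9 CPM against 9.33, 10.3, 6.37 and 11.2 CPM. The genotypes were therefore separate in each of the 5 treatments, as 2.34% of tested genes were in the lower direction. Over all 20 libraries per genotype the ranges did not overlap either, which held for 1.56% of tested genes in that direction, 1.59% in the other and for 2.94% of those with at least 1 CPM.

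Averaged over treatments, NEIL1 in PARP1-KO cells was at 33.8% of WT, a log2 fold change of −1.56 (SE 0.11, 95% CI −1.78 to −1.35, adjusted p = 5.3e-19, edgeR). With the 28 libraries of 20000 or more genes it was −1.43 (adjusted p = 9.27e-21, edgeR), with WT between 22.4 and 27.7 CPM over 10 libraries and PARP1-KO between 5.84 and 12.3 CPM over 18. It was −1.57, −1.53 and −1.34 on the log2 scale within the 3 prefixes of the library names (L01, L02 and L03), whose meaning is not stated. NEIL1 was thus lower within every prefix and in every single treatment.

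The end of NEIL1 overlaps that of MAN2C1, an α-mannosidase gene on the opposite strand, by 1909 bases. MAN2C1 was lower as well, at 40.03 ± 6.88 CPM in WT and 23.6 ± 4.15 CPM in PARP1-KO cells (SD, n = 20), a log2 fold change of −0.76 (adjusted p = 1.23e-11, edgeR). The strand column used for counting is not stated, so reads of the pair cannot be fully told apart. Within 500 kb of NEIL1, 13 of 20 other genes with at least 1 CPM were lower, none was higher, and their median log2 fold change was −0.38, where all genes of that level had 25.3% called lower. One of these 20 neighbours had a lower log2 fold change than NEIL1 itself. The window was chosen after values had been seen, and what part the region has in the NEIL1 difference was not tested.

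SMUG1 (ENSG00000123415, chromosome 12, 54121277 to 54189008, minus strand), a uracil glycosylase that also takes 5-hydroxymethyluracil, was lower in PARP1-KO cells, at 64.0% of WT. Without treatment it was at 47.4, 38.3, 32.99 and 38.8 CPM in WT and at 20.9, 28.4, 26.9 and 27.5 CPM in PARP1-KO cells. With DMSO it was at 41.9, 38.5, 37.6 and 32.4 CPM against 22.2, 23.6, 22.0 and 25.6 CPM. The lowest WT value stood above the highest PARP1-KO value in both, where 8.37% and 7.76% of tested genes were lower without overlap.

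Under Tpc, SMUG1 was at 43.6, 20.4, 34.7 and 34.9 CPM in WT and at 19.3, 23.2, 16.5 and 21.1 CPM in PARP1-KO cells. This was the treatment in which the ranges overlapped, through WT replicate 2, 1 of the libraries with few genes detected. In the OL9-119 groups the ranges were 31.5 to 37.8 CPM against 19.5 to 26.6 CPM, and with Tpc + OL9-119 they were 30.2 to 35.2 CPM against 20.1 to 22.4 CPM. Of tested genes, 10.9% with OL9-119 and 7.29% with the combination were lower without overlap. The averaged log2 fold change was −0.64 (SE 0.08, adjusted p = 2.11e-10, edgeR), or −0.65 over the 28 libraries with 20000 or more genes. In those 28 libraries SMUG1 lay between 31.5 and 43.6 CPM in WT and between 16.5 and 28.4 CPM in PARP1-KO cells. These ranges did not overlap, as in 4.93% of tested genes and 9.14% of those with at least 1 CPM in the lower direction, but the choice of libraries was made after seeing the data and leaves out WT Tpc replicate 2. Over all 40 libraries the SMUG1 ranges overlapped.

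MPG (ENSG00000103152, chromosome 16, 77007 to 85851, plus strand), which removes alkylated purines, was also lower, but its libraries were more scattered. Under DMSO it was at 39.7, 20.05, 59.6 and 26.3 CPM in WT and at 18.9, 24.5, 13.7 and 22.3 CPM in PARP1-KO cells. Under Tpc it was at 32.5, 35.6, 33.1 and 29.1 CPM against 15.002, 30.2, 14.5 and 18.2 CPM. The ranges overlapped in both, and in the other conditions except OL9-119, where WT lay between 30.01 and 49.1 CPM and PARP1-KO between 18.1 and 26.2 CPM. With OL9-119, 10.9% of tested genes were lower without overlap. 

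Averaged over treatments, MPG had a log2 fold change of −0.62 (SE 0.11, 95% CI −0.84 to −0.41, adjusted p = 1.93e-06, edgeR), and −0.49 with the 28 libraries of 20000 or more genes (adjusted p = 8.05e-06, edgeR). MPG shares 1581 bases with NPRL3, a gene of amino acid sensing on the opposite strand. NPRL3 was lower too, at 49.4 ± 12.4 CPM in WT and 29.96 ± 4.93 CPM in PARP1-KO cells (SD, n = 20), a log2 fold change of −0.71 (adjusted p = 8.19e-11, edgeR). Of 21 genes within 500 kb of MPG with at least 1 CPM, 9 were lower and 1 was higher, where 25.3% and 27.0% of all genes of that level were. Around SMUG1, 4 of 23 such genes were lower and 4 higher, and around OGG1, which was not called, 8 of 24 were lower and 5 higher. Around TDG, which was higher, 4 of 11 were higher and 1 lower (median 0.19). The 1 such gene near NEIL3 was lower (−1.48). What part these regions have was not tested.

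NEIL3 (ENSG00000109674, chromosome 4, 177309874 to 177362936, plus strand), which acts on oxidised bases in single-stranded DNA and on crosslinks at replication forks, differed less. In the main fit it was called in the averaged comparison alone. Without treatment it was at 37.9, 34.9, 17.3 and 31.97 CPM in WT and at 22.3, 29.5, 29.5 and 31.0 CPM in PARP1-KO cells, with overlap. Under Tpc it was at 42.1, 35.9, 40.7 and 39.3 CPM against 23.2, 24.0, 29.1 and 26.4 CPM. Under OL9-119 it was at 39.6, 38.1, 45.1 and 42.3 CPM against 33.7, 29.7, 32.8 and 29.3 CPM. The genotypes did not overlap in any of the 3 drug conditions, where 9.30%, 10.9% and 7.29% of tested genes were lower without overlap. They did overlap without a drug, where WT replicate 3 was the lowest value of its group with no treatment and with DMSO.

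The averaged log2 fold change of NEIL3 was −0.44 (SE 0.08, 95% CI −0.61 to −0.27, adjusted p = 1.3e-05, edgeR). Within treatments it ran from −0.12 without treatment (adjusted p = 0.720) to −0.62 with Tpc (adjusted p = 0.0163). The 28 libraries with 20000 or more genes gave −0.45, and in them Tpc (−0.65, adjusted p = 8.6e-05) and OL9-119 (−0.45, adjusted p = 0.00267) passed the threshold in edgeR. The within-group SD of NEIL3 on the log2 scale was 0.355 in WT and 0.140 in PARP1-KO cells, a ratio of 2.54. That ratio had a median of 1.62 over genes with at least 1 CPM, and WT was the more variable genotype for 9 of the 10 glycosylases and for 88.4% of those genes.

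**Figure D2:**
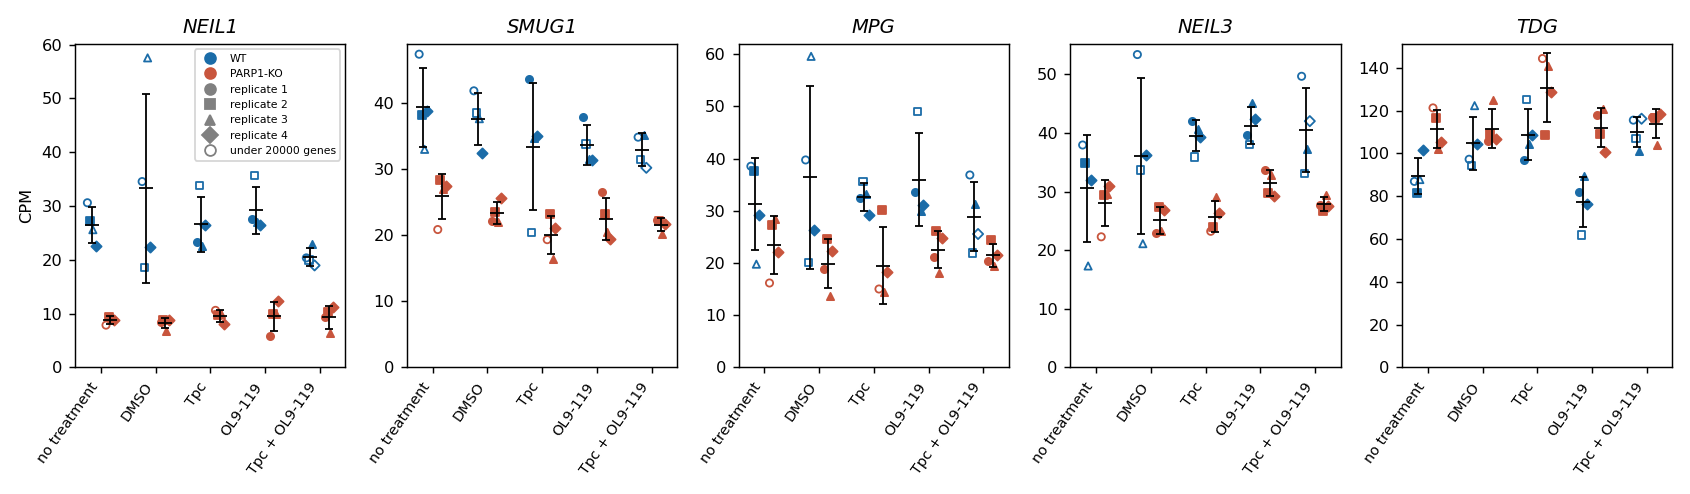
CPM of the 5 called genes in every library by treatment (x axis) and genotype. Each marker is 1 library with its shape giving the replicate, open where fewer than 20000 genes were detected, and black bars are the mean ± SD of 4 libraries. The NEIL1 values of the genotypes are apart under each treatment, and the widest WT spread of NEIL1 and MPG is with DMSO, where replicate 3 reached 57.5 and 59.6 CPM.

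TDG (ENSG00000139372, chromosome 12, 103965822 to 103988874, plus strand) excises thymine and uracil opposite guanine and the oxidised forms of methylcytosine made by TET enzymes. Under OL9-119 it was at 82.0, 61.8, 89.2 and 76.2 CPM in WT and at 117.9, 109.1, 120.6 and 100.4 CPM in PARP1-KO cells, without overlap. Without treatment it was at 86.9, 81.5, 87.7 and 101.5 CPM against 121.2, 116.4, 102.1 and 105.3 CPM, where the highest WT and lowest PARP1-KO libraries nearly met. Under DMSO, Tpc and Tpc + OL9-119 the ranges overlapped. Separate ranges in either direction were found for 23.6% of tested genes with OL9-119 and for 19.7% without treatment.

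The averaged log2 fold change of TDG was 0.25 (SE 0.05, 95% CI 0.14 to 0.36, adjusted p = 7.79e-05, edgeR), and 0.23 with the 28 libraries of 20000 or more genes. With offsets per gene for length and for GC it was −0.02 (adjusted p = 0.950, edgeR), so its direction turned with that choice. Those offsets also moved the split of calls over all genes from 59.4% to 50.2% higher and the median of genes with at least 1 CPM from 0.02 to −0.07. The processed copy TDGP1 in the annotation drew at most 10 counts in a library.

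SMUG1, also called, had no promoter window to give. The promoter windows of the other 4 called genes are given here because these genes differed between the genotypes. They run from 250 bases before to 50 bases after a RefSeq transcription start on GRCh38.p14, which is hg38, and 8 of the 10 genes had at least 1 window in that table, 13 windows in all. Capitals mark matches on either strand to the GC box GGGCGG, the CCAAT box CCAAT, the E box CACGTG or the cell-cycle element CHR TTTGAA. GC boxes that overlap were counted separately. NEIL1, from chr15:75347369-75347668, plus strand:
NEIL1: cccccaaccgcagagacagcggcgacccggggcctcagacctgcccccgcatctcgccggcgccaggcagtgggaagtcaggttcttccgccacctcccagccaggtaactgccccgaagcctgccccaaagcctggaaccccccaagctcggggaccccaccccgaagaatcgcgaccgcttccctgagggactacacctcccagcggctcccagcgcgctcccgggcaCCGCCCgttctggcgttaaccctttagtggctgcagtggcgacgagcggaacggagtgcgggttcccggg
MPG, from chr16:77975-78274, plus strand:
MPG: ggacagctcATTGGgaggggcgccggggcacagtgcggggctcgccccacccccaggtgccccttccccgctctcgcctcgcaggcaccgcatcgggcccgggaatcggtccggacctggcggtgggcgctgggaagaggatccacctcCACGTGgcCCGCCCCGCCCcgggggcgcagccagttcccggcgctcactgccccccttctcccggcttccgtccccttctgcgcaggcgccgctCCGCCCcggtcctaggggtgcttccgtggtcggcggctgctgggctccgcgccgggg
NEIL3, from chr4:177309624-177309923, plus strand:
NEIL3: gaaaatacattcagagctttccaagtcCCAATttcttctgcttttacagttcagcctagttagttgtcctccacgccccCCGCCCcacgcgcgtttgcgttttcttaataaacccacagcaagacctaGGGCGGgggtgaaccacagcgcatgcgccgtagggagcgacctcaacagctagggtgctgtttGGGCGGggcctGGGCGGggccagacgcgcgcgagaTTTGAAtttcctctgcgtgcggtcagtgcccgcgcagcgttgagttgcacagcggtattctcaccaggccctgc
TDG, from chr12:103965622-103965921, plus strand:
TDG: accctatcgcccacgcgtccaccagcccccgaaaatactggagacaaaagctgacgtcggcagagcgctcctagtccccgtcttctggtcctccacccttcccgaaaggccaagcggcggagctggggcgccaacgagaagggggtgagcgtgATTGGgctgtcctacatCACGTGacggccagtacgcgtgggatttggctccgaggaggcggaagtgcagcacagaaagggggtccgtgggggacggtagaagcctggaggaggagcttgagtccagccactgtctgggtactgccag

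This NEIL1 window held 1 GC box, MPG held 3 GC boxes, 1 CCAAT box and 1 E box, NEIL3 held 4 GC boxes and 1 each of CCAAT box and CHR, and TDG held 1 CCAAT box and 1 E box. Of all 35116 windows in the table, 45.0% held a GC box, 34.6% a CCAAT box, 7.26% an E box and 15.2% the CHR. The E2F motifs TTTCGCGC, TTTGGCGC and TTTCCCGC, held by 2.74% of all windows, had no match in the 13 windows. GC boxes and CCAAT boxes were also held by windows of MBD4, MUTYH, OGG1 and UNG, which were not called. The table has 3 NEIL1 windows, and the count table does not show which start was used. Of the others, the window at chr15:75346789-75347088 held 1 CCAAT box and no GC box, and that at chr15:75347585-75347884 held 1 GC box, so that a motif shared with the other genes depends on the NEIL1 start taken.

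The other 5 glycosylases did not pass the threshold in the averaged comparison. UNG, the main nuclear and mitochondrial uracil glycosylase, lay between 72.9 and 127.03 CPM with a median of 105.1 CPM in WT and between 89.0 and 129.2 CPM with a median of 103.6 CPM in PARP1-KO cells, a log2 fold change of 0.02 (95% CI −0.09 to 0.12). This interval was the narrowest of the 10 genes. MBD4, a thymine glycosylase with a methyl-CpG-binding domain, had 0.02 (95% CI −0.14 to 0.19), and OGG1 had −0.01 (95% CI −0.22 to 0.20). 

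MUTYH, with medians of 15.96 CPM in WT and 12.6 CPM in PARP1-KO cells, had a log2 fold change of −0.25 (95% CI −0.49 to −0.01, adjusted p = 0.0851, edgeR). NEIL2, the gene with the lowest median CPM before division by length, had medians of 6.14 and 5.56 CPM and a log2 fold change of −0.48 (95% CI −0.87 to −0.08, adjusted p = 0.0448, edgeR). With the 28 libraries of 20000 or more genes NEIL2 stood at −0.09 (adjusted p = 0.823, edgeR). Its 4 highest WT values came from libraries with few genes detected, and the within-group SD of NEIL2 on the log2 scale, 0.691 in WT, was the largest of the 10 genes.

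Genes on the opposite strand overlap OGG1 (CAMK1 and TADA3), MUTYH (TOE1), MBD4 (IFT122) and SMUG1 (LINC02381), and ACACB overlaps UNG on the same strand. IFT122 (−0.53, adjusted p = 2.14e-07) and CAMK1 (−0.44, adjusted p = 1.48e-05) were lower and TOE1 (0.26, adjusted p = 0.00177) was higher in the averaged edgeR comparison. The values of these glycosylases carry the same uncertainty about strand.

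Within single treatments, 10 of the 50 gene-by-treatment tests were called. NEIL1 was called under all 5 treatments, with a log2 fold change of −1.57 in untreated cells, −2.02 under DMSO, −1.48 under Tpc, −1.61 under OL9-119 and −1.14 under the combination (adjusted p up to 0.000489, edgeR). SMUG1 was called without treatment (−0.60, adjusted p = 0.00784), with DMSO (−0.69, adjusted p = 0.00199) and with Tpc (−0.74, adjusted p = 0.00143), and it just missed with OL9-119 (−0.59, adjusted p = 0.0119) and Tpc + OL9-119 (−0.61, adjusted p = 0.0111). MPG was called with DMSO (−0.87, adjusted p = 0.00555) and TDG with OL9-119 (0.53, adjusted p = 0.0007). In these comparisons 11.7%, 12.4%, 8.52%, 9.77% and 7.27% of all tested genes were called, against 2, 3, 2, 2 and 1 of the 10 glycosylases. In the averaged comparison the share rose from 35.2% of all tested genes to 52.3% of those with at least 1 CPM. That higher share was not computed within treatments, so these counts are not read as an excess over the background.

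Except for NEIL1, each call within a treatment was lost in at least 1 fit that left out a single library. That of MPG with DMSO was lost without WT DMSO replicate 1 or 3 or PARP1-KO DMSO replicate 1 or 3, with values from −0.85 to −0.53 and an adjusted p of up to 0.116, and with the 28 libraries it was −0.41 (adjusted p = 0.348), where 1 WT DMSO library is left. The call of TDG with OL9-119 was lost without WT OL9-119 replicate 2 (0.44, adjusted p = 0.0102). The call of SMUG1 without treatment was lost in 16 of 40 fits that each left out 1 library, with values from −0.67 to −0.50 and an adjusted p of up to 0.0578. Its call with DMSO was lost without WT DMSO replicate 1 (−0.63, adjusted p = 0.0121), and its call with Tpc without WT Tpc replicate 1 (−0.58, adjusted p = 0.0284) or PARP1-KO Tpc replicate 3 (−0.68, adjusted p = 0.0114), all in edgeR. Every one of these fits kept the lower level of SMUG1 in PARP1-KO cells. In the same 28 libraries SMUG1 was −0.50 without treatment (adjusted p = 0.0147), −0.49 with DMSO (adjusted p = 0.104), −0.93 with Tpc (adjusted p = 7.95e-07), −0.60 with OL9-119 (adjusted p = 0.000282) and −0.71 with Tpc + OL9-119 (adjusted p = 0.00792). An exact two-sided permutation test of log2 CPM, 4 against 4 libraries with a smallest possible p of 0.0286, reached p below 0.05 under 5 treatments for NEIL1, 4 for SMUG1, 3 for NEIL3, 2 for TDG and 1 each for OGG1, MBD4 and MPG. NEIL2, MUTYH and UNG did not reach it under any treatment. Only 4 values wholly above or below the other 4 give a p below 0.05. This test therefore repeats the overlap of ranges that follows and adds no support of its own. By treatment, in the order above, the CPM ranges of the genotypes did not overlap for 19.7%, 20.1%, 19.8%, 23.6% and 18.1% of tested genes, 9.30%, 10.9% and 7.29% in the lower direction with Tpc, OL9-119 and the combination, and for 17 of the 50 glycosylase values. The shares by treatment were not computed for genes with at least 1 CPM, to which all the glycosylases belong.

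**Figure D3:**
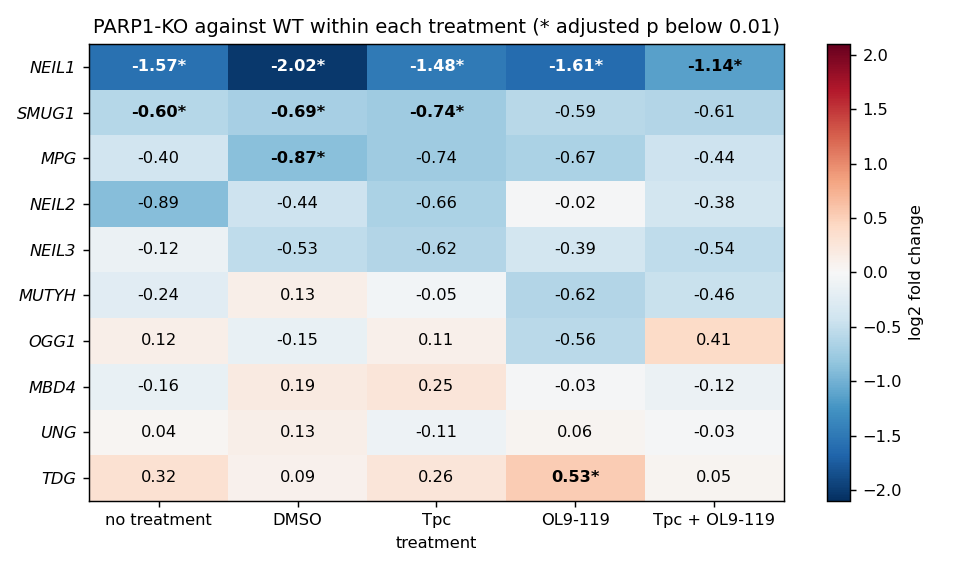
Log2 fold change of each glycosylase gene (rows), PARP1-KO against WT, within each treatment (columns), with an asterisk where the adjusted p of edgeR is below 0.01. NEIL1 carries an asterisk in all 5 columns and SMUG1 in 3, and the values of TDG run from 0.05 to 0.53.

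The next question was whether the drugs changed glycosylase transcripts after 5 to 5.5 h. Against untreated cells of the same genotype, 0 of 30 tests in WT and 0 of 30 in PARP1-KO cells were called in edgeR. In WT, 0.857% of all tested genes were called after Tpc, 1.28% after OL9-119 and 4.07% after the combination, so that few or no calls among 10 genes are what the background gives. In PARP1-KO cells the shares were 0.0138%, 0.00346% and 0%. At an unadjusted p below 0.05 there were 2 glycosylases with each drug condition in WT, and 1, 0 and 0 in PARP1-KO cells. Of all tested genes, 15.6%, 16.1% and 21.7% were under that value in WT and 5.92%, 3.22% and 4.29% in PARP1-KO cells, so the glycosylase counts were near the background.

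UNG with Tpc came with the lowest unadjusted p in WT. It was at 93.8, 94.1, 97.7 and 105.8 CPM without treatment, at 120.1, 122.7, 127.03 and 120.6 CPM with Tpc and at 110.9, 110.9, 106.6 and 117.8 CPM with Tpc + OL9-119. Both drug groups lay above all untreated libraries, as ranges did not overlap for 5.68% of tested genes with Tpc and for 7.76% with Tpc + OL9-119. The log2 fold change with Tpc was 0.33 (95% CI 0.09 to 0.56, adjusted p = 0.143, edgeR), and it was 0.40 against DMSO-treated cells (adjusted p = 0.0517). In PARP1-KO cells UNG was at 93.0, 129.2, 117.6 and 115.4 CPM with Tpc against 103.2, 106.5, 102.4 and 89.8 CPM without treatment, a difference of 0.18 (adjusted p = 0.869, edgeR). The difference of these responses, −0.15 with a 95% CI from −0.48 to 0.18, did not separate the genotypes, whose Tpc doses differed.

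NEIL3 with OL9-119 lay above untreated WT cells in every library, at 38.1 or more against 37.9 CPM or less, where 5.86% of tested genes did not overlap, with a log2 fold change of 0.43 (adjusted p = 0.226, edgeR). TDG stood at 0.28 with Tpc and at 0.30 with Tpc + OL9-119 in WT (adjusted p = 0.226 and 0.115, edgeR). NEIL1 with Tpc + OL9-119 was at −0.37 (95% CI −0.84 to 0.10, adjusted p = 0.366, edgeR), so its WT response was not told from 0. In PARP1-KO cells the range of no glycosylase was apart from that of untreated cells with any drug, where 5.14%, 3.92% and 3.93% of tested genes had separate ranges.

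DMSO is the solvent of every drug condition, and with DMSO-treated cells as comparator 1 call appeared in WT. MUTYH was at 10.4, 7.49, 9.35 and 12.8 CPM with DMSO, at 25.4, 28.9, 21.5 and 16.7 CPM with OL9-119 and at 21.8, 17.7, 5.83 and 13.6 CPM without treatment. The DMSO and OL9-119 libraries did not overlap, and untreated cells spread across both. OL9-119 against DMSO gave 1.21 (SE 0.27, 95% CI 0.67 to 1.75, adjusted p = 0.00400, edgeR), in a comparison where 1.15% of all tested genes were called. Tpc and Tpc + OL9-119 against DMSO gave 0 calls among the 10 genes in WT, with 0.985% and 3.38% of tested genes called, and all 3 gave 0 in PARP1-KO cells, where 0%, 0.00346% and 0% of tested genes were called. This value ran from 1.09 to 1.35 when each of these 8 DMSO and OL9-119 libraries was left out, and the call was lost in 6 of these 8 fits, with an adjusted p of up to 0.0225. Against untreated cells the value was 0.64 (adjusted p = 0.192, edgeR). In PARP1-KO cells MUTYH was at 15.01, 20.7, 9.30 and 15.1 CPM with OL9-119 and at 11.2, 12.3, 8.52 and 11.5 CPM with DMSO, with overlap.

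DMSO alone gave 0 calls among the glycosylases, and 0% of all tested genes were called in either genotype by edgeR, while an unadjusted p below 0.05 was found for 3116 genes in WT cells and for 538 in the knockout. Of the glycosylases, 1 was under 0.05 in WT, which was MUTYH at −0.57 (adjusted p = 0.439), and 0 in PARP1-KO cells. Their ranges with DMSO all overlapped those without treatment, where separate ranges were found for 1.15% of tested genes in WT libraries and for 1.78% in the knockout. Tpc + OL9-119 against Tpc gave 0 calls in both genotypes, where 0.180% and 0% of all tested genes were called. The genotype difference of the drug responses was also called for 0 of 30 tests, against 0.100% of tested genes for Tpc, 0.0657% for OL9-119 and 0.270% for Tpc + OL9-119. The lowest unadjusted p of these 30 tests was for OGG1 with OL9-119, −0.68 (95% CI −1.34 to −0.02, adjusted p = 0.733, edgeR).

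**Figure D4:**
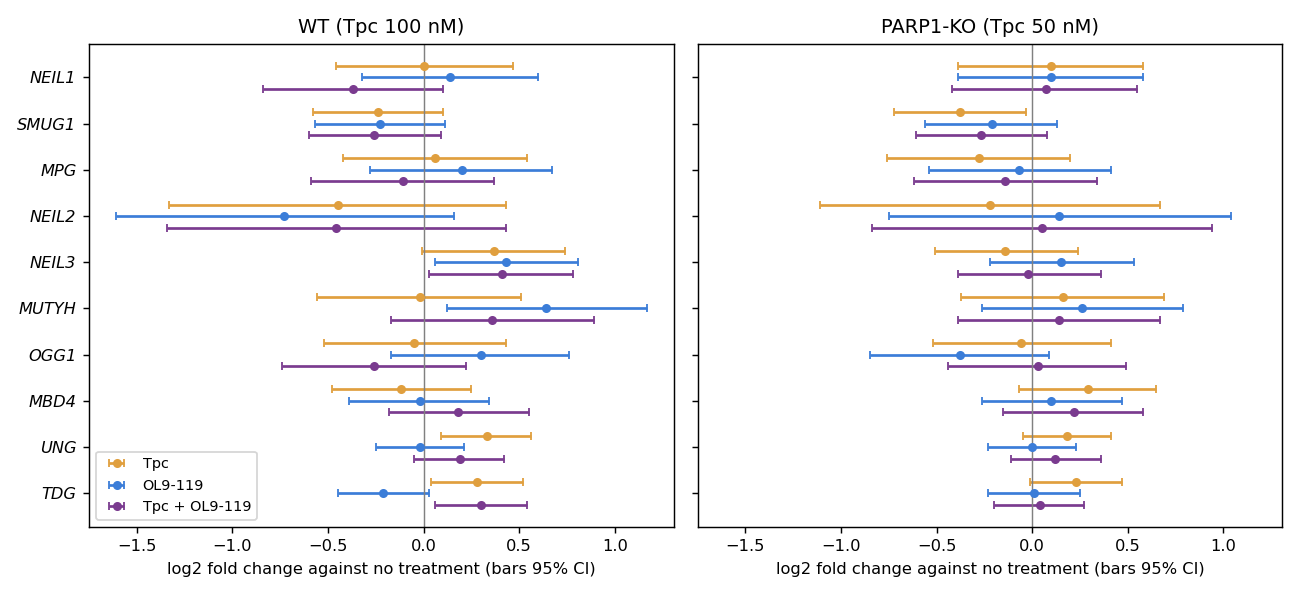
Log2 fold change of each glycosylase gene against untreated cells of the same genotype for each drug condition (x axis, bars are 95% confidence intervals), in WT (left) and PARP1-KO cells (right). The intervals of NEIL2 are the widest in both, and no response passed the adjusted threshold, with UNG under Tpc in WT at 0.33.

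The steps after the glycosylases were followed with a list of 27 downstream genes. In the averaged comparison 3 were higher and 7 lower, with a median log2 fold change of −0.04. PARP1 itself is in the list and counts among the 7 lower, a call fixed by the knockout. The 3 higher ones were PCNA (0.51), the sliding clamp of DNA replication, APEX2 (0.35) and PARP2 (0.33). NTHL1, the glycosylase for oxidised pyrimidines that was counted in this list and not among the 10, had −0.20 (adjusted p = 0.201, edgeR). PARP1 apart, the largest differences were in POLE4, a subunit of DNA polymerase ε, at 28.6 CPM in the median WT and 12.3 CPM in the median PARP1-KO library (−1.29, adjusted p = 5.43e-16), in the end-processing factor APLF at 5.80 and 2.95 CPM (−1.10, adjusted p = 0.000282), and in POLD2, a subunit of DNA polymerase δ, at 136 and 97.2 CPM (−0.55, adjusted p = 2.51e-12). The ranges of APLF overlapped widely, from 0.178 to 14.5 CPM in WT. The abasic endonuclease APEX1 (−0.04, adjusted p = 0.704) and the scaffold XRCC1 (−0.05, adjusted p = 0.758) did not pass the threshold, and POLB, the main gap-filling polymerase, was lower (−0.49, adjusted p = 2.29e-07, edgeR).

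Among 20 genes that supply or compete for glycosylase substrates, 7 were higher and 5 lower, with a median of −0.03. DNMT1, the maintenance DNA methyltransferase, was at 238 to 409 CPM in WT and 595 to 687 CPM in PARP1-KO libraries (0.96, adjusted p = 4.29e-26, edgeR), without overlap. The alkylguanine transferase MGMT was lower (−0.85, adjusted p = 3.05e-07), as were the cytosine deaminase APOBEC3B (−0.75, adjusted p = 2.48e-11) and the de novo methyltransferase DNMT3A (−0.61, adjusted p = 2.76e-08). The called counts, 10 of 27 with PARP1 itself included and 12 of 20, compare with 35.2% of all tested genes and 52.3% of those with at least 1 CPM.

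Cell-cycle genes were read beside these values since NEIL3 and UNG are cell-cycle regulated. Of 15 S phase genes 8 were higher and 2 lower in PARP1-KO cells (median 0.17), and of 12 G2/M genes 4 were higher and 4 lower (median −0.06). In this averaged comparison 35.2% of all tested genes and 52.3% of those with at least 1 CPM were called. This average holds the WT responses to Tpc. Between the genotypes without treatment, 0 G2/M genes were higher and 5 lower (median −0.31), and with DMSO 0 were higher and 6 lower (median −0.48), where 11.7% and 12.4% of all tested genes were called. The S phase genes had 3 higher and 1 lower without treatment and 4 higher and 1 lower with DMSO. With Tpc in WT, 9 of 12 G2/M genes were called lower (median −1.09), where 0.857% of all tested genes were called. With Tpc + OL9-119, 10 of 12 were called lower (median −1.11), where 4.07% of all tested genes were called. The highest log2 fold changes among the 12 were −0.22 and −0.29. No glycosylase was called in these WT responses to Tpc and Tpc + OL9-119. In PARP1-KO cells none of the 12 passed the threshold with Tpc, OL9-119 or Tpc + OL9-119 (medians −0.32, −0.09 and −0.27). Of all tested genes, 0.0138%, 0.00346% and 0% were called there. The genotype difference of these responses, PARP1-KO minus WT, was called higher for 2, 0 and 7 of 12 (medians 0.72, 0.13 and 0.91). It was called for 0.100%, 0.0657% and 0.270% of all tested genes. PARP1-KO cells received the lower Tpc dose, so genotype and dose cannot be told apart in the Tpc responses. What part the cell cycle has in the glycosylase values was not tested.

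Across the 40 libraries, the genes most like NEIL1 among 15347 were HLA-B (Pearson r = 0.95), ATP5F1A (0.94) and PKP3 (0.94). The libraries differ in genotype, depth and normalization factor, and such differences enter r. After the genotype means were subtracted, SLC45A4 and TRPT1 (both 0.73) and DDRGK1 (0.72) came first. For UNG, E2F1, a transcription factor of the G1/S transition, led with 0.73 both before and after the means were subtracted. NEIL3 was most like IGHMBP2 (0.81), PRIMPOL (0.80) and RNF214 (0.79), and TDG was most like ZNF222 (0.84), ZFP82 (0.83) and MCL1 (0.81). With the genotype means subtracted, NEIL3 was most like DNAH11 (0.80), STX18-AS1 (0.78) and ENSG00000272936 (0.76). TDG was then most like ZNF222 (0.77), EIF2S1 (0.77) and ZFP82 (0.76). These correlations describe the libraries and were chosen as the highest of all genes.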

How the data were processed

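Poly(A) RNA of the HEK293A lines was sequenced by the authors as directional libraries (40 libraries, 10 conditions of 4). The authors aligned reads to hg38 with STAR 2.7.8 and deposited the raw counts per gene from its gene-count option, without normalization. The strand column kept is not stated, and 0 columns of other samples were present. Counts were scaled by TMM to CPM. Genes with a summed count of at least 10 were kept (28922 of 58395) and tested with glmQLFTest of edgeR 4.0.16 in R 4.3.3, legacy option on, all 40 libraries, 1 group per condition, no covariate and Benjamini-Hochberg adjustment over all tested genes at 0.01. Depth per library (3455043 to 20379777 counts) limits precision mainly for NEIL2. Intervals cover the spread between libraries, with 1 estimate per gene shared by all 10 conditions. WT was the more variable genotype for 88.4% of genes with at least 1 CPM. Intervals within a genotype may therefore be too narrow for WT and too wide for PARP1-KO cells, and the tests share this limit. The method was tested on simulated data in which both genotypes had the same spread for each gene, so that test does not cover this limit. Names and positions came from GENCODE 44, which matched 57754 genes.

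The 10 glycosylases and all gene lists were chosen with earlier results of these data known. Of the downstream and substrate lists, the 4 largest differences among called genes are named, and APEX1, XRCC1, POLB and NTHL1 were named for their roles after their values were seen. Alternatives were DESeq2 1.42.0, RLE factors, other filters and thresholds, DMSO as comparator, only the libraries compared, a block for the replicate number, a term for the library-name prefix, length and GC offsets, and each library or replicate number left out. Chosen after seeing the data were the legacy option off, the 28 libraries with 20000 or more genes, and the DMSO comparator with 1 library left out.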

Additional observations from a re-analysis of the deposited data

Results flagged for a closer look

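Single libraries stood apart from the other 3 of their condition in 4 of 100 groups of 4, by a gap to the nearest library that passed Dixon's critical value, and chance gives about 1 in 20. NEIL1 in WT cells with OL9-119 was at 35.7 CPM in replicate 2 and between 26.4 and 27.7 CPM in the others. MUTYH in WT cells with Tpc + OL9-119 was at 26.4 CPM in replicate 2, against 15.9 to 16.7 CPM. TDG in PARP1-KO cells was at 124.8 CPM in replicate 3 with DMSO, against 105.7 to 108.9 CPM, and at 103.9 CPM in replicate 3 with Tpc + OL9-119, against 116.3 to 118.5 CPM.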

How the results depend on the processing

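Averaged over treatments, the calls of NEIL1, SMUG1, MPG and NEIL3 and their direction held under every alternative run, and those of TDG under all but the length and GC offsets, where its log2 fold change was −0.02. NEIL1 was called within every treatment in every fit. The 10 calls within treatments became 17 at an adjusted p below 0.05, ran from 8 to 13 with single libraries left out and from 6 to 9 with a replicate number left out, 6 being without replicate 1. The call of TDG with OL9-119 was lost with the length and GC offsets, without replicate 2 and without WT OL9-119 replicate 2. Calls were gained as well. NEIL3 with Tpc was called in 7 of 15 other fits, counting the 0.05 threshold as 1. SMUG1 was called in 6 of 15 with OL9-119 and in 7 of 15 with Tpc + OL9-119. DESeq2 was among these fits in all 3 cases. The 0 calls of drug responses in WT became 1 with the DMSO comparator, and 0 to 1 when 1 library was also left out. That call was MUTYH with OL9-119, except without WT DMSO replicate 2, where it was NEIL1 with Tpc + OL9-119 (−0.89). The number of calls stayed at 0 in every fit for drug responses in PARP1-KO cells, DMSO, the genotype difference of responses and Tpc + OL9-119 against Tpc. With the replicate block the calls within treatments numbered 9, SMUG1 without treatment losing its call (−0.58, adjusted p = 0.0107, edgeR), and no other number of calls moved. That block gives each replicate number 1 effect shared by both genotypes, so it does not cover likeness by number within a genotype. The numbers were not taken as pairs: same-numbered WT and PARP1-KO libraries of a treatment had a mean r of −0.0152 (−0.0943 to 0.0687), and r passed 0.1 in 14 of 40 same-numbered pairs within WT and 13 of 40 within PARP1-KO, against 22 and 10 of 120 other pairs. They go in part with the library-name prefix, as all libraries numbered 1 are L01. Between the genotypes under DMSO, the offsets moved the higher share of all calls from 53.7% to 33.8%. The causes of these changes were not tested. Depth limits NEIL2 most.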
